A study of Mus musculus with 8 samples.

Results

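A set of 10 transcription factors that mark regions and neuron types of the hypothalamus were followed in mouse hypothalami after postnatal treatment with PLX3397, an inhibitor of the CSF1 receptor that microglia need to survive. The 10 genes, Nkx2-1, Isl1, Tbx3, Prdm12, Nr5a1, Fezf1, Otp, Sim1, Six3 and Six6, were chosen by name as factors of region and neuron identity, and all 10 were found among the 55401 genes of the table. Each of the 10 passed the filter on low values (a mean of at least 0.5 FPKM, fragments scaled to gene length and library size, over the libraries), as did 16894 genes in all.

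The data are RNA sequencing of 8 hypothalami from mice of postnatal day 19. Pups had been gavaged with vehicle or with PLX3397 between postnatal days 9 and 15, so tissue was taken after dosing had ended. Each group had 4 libraries, 2 from females and 2 from males, named here by group, sex and number (Vehicle F1, PLX3397 M2 and so on). No source used here states the strain, the dose or what the vehicle was. The design speaks of 8 hypothalami, which were taken as separate animals, while the tissue field of the samples reads brain.

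The hypothalamus is a mosaic of small nuclei that control feeding, growth, reproduction, water balance and daily rhythm. Region factors are switched on in the embryo, where they set which neurons form, and several stay on in the mature neurons and keep their peptide genes active. Because each is expressed in a few nuclei, their levels in a whole hypothalamus also depend on which nuclei a dissection includes. In such bulk tissue, fewer cells of a type and less RNA per cell cannot be told apart.

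The sequence just upstream of a gene's start holds much of its core promoter. In the RefSeq table of mouse promoters (GRCm38.p6), 8 of the 10 factors had an entry, and 250 bases before the start of each were read. The windows are shown for the paralogues Six3 and Six6, which share an upstream feature, for Fezf1 and Otp, which have it too, and for Nkx2-1, which lacks it and had the smallest p among the 10. The RefSeq starts differ from those of the deposited table. Among the windows shown, those of Fezf1 and Otp therefore reach into the span the table gives for the gene. The window of Six3 lies wholly inside that span, past the start the table gives. The sequences run 5′ to 3′ on the gene's strand, and capitals mark the CCAAT box, a common promoter element, or its reverse complement ATTGG.
Six3, chr17:85620584-85620833, plus strand: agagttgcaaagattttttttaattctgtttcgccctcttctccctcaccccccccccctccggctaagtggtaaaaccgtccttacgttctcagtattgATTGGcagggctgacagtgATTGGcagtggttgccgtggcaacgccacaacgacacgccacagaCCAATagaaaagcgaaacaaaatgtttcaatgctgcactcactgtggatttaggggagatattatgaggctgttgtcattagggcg
Six6, chr12:72939632-72939881, plus strand: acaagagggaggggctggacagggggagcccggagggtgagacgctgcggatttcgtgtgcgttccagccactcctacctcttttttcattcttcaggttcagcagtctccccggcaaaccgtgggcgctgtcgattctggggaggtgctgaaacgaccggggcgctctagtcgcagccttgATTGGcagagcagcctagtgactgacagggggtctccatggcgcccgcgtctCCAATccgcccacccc
Fezf1, chr6:23248265-23248514, minus strand: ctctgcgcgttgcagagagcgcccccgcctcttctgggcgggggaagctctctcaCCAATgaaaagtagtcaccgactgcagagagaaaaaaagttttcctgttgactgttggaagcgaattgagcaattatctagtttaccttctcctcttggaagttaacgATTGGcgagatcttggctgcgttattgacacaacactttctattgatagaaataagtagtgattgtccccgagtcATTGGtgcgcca
Otp, chr13:94875386-94875635, plus strand: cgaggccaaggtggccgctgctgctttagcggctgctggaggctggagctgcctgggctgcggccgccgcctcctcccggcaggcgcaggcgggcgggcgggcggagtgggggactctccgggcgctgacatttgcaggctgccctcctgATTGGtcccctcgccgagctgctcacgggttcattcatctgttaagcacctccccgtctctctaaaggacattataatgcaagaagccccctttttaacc
Nkx2-1, chr12:56536909-56537158, minus strand: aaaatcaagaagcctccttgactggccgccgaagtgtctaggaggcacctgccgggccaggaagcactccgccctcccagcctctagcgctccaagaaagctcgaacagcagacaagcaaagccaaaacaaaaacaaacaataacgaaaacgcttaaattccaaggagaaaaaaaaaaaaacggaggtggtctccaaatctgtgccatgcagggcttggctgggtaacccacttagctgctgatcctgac
CCAAT on either strand was present in 5 of the 8 windows, those of Fezf1, Six6, Otp, Isl1 and Six3, against 33.8% of the 32851 windows in the table. Six3 and Fezf1 held 3 copies each, Six6 and Isl1 2 each, and Otp 1. The GC box GGGCGG (reverse complement CCGCCC) was also in 5 of 8, here Prdm12, Fezf1, Nkx2-1, Six6 and Otp, against 32.7% of all windows. TATAAA (reverse complement TTTATA) was found for Sim1 alone, against 12.4% of all windows. None of the 8 windows held the homeodomain palindrome TAATTA, present in 4.84% of all windows. None held TGATAC, a core element bound by factors of the family of Six3, on either strand (4.64% of all windows). None held AAGGTCA, an element that Nr5a1 binds, on either strand (4.08% of all windows). CpG dinucleotides numbered 9 to 33 per window with a median of 11.5, against a median of 6 over all windows, and Isl1 had the most. These matches describe letters only, and nothing in the data measured binding there.

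All 10 factors were detected in every library. Compared per length, Otp was the most abundant at 15.2 ± 2.25 FPKM (mean ± SD, n = 8), followed by Nkx2-1 at 10.2 ± 1.36, Fezf1 at 8.24 ± 1.17, Isl1 at 6.61 ± 0.845 and Nr5a1 at 6.36 ± 1.54. Six3 stood at 3.88 ± 0.863 FPKM, Six6 at 2.65 ± 0.575, Tbx3 at 2.22 ± 0.272, Sim1 at 1.51 ± 0.150 and Prdm12 at 1.29 ± 0.312. In this order the means lay further apart than their SDs reach between Otp and Nkx2-1, between Nr5a1 and Six3 and between Tbx3 and Sim1, and all other neighbours overlapped within 1 SD.

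**Figure D1:**
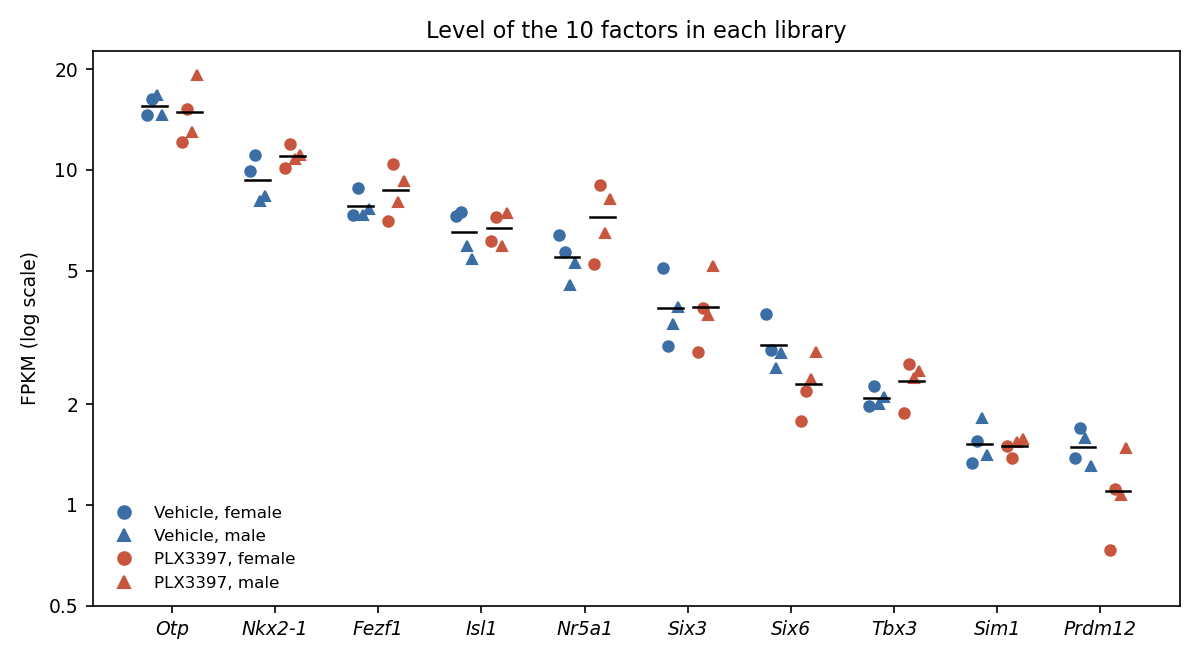
FPKM on a log axis of the 10 factors, ordered by mean level; each point is 1 library (circles female, triangles male, colours by group) and each black line the mean of the 4 libraries of a group. Otp lies highest and Prdm12 lowest, and for every gene the points of the 2 groups overlap.

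No factor passed the test for a difference between PLX3397 and vehicle. The count was 0 of 10 at an adjusted p under 0.05 in edgeR's quasi-likelihood test, where 2.14% of all tested genes were called (1.83% lower and 0.308% higher), and the smallest adjusted p was 0.233. At an unadjusted p under 0.05 the test named 1 of 10, Nkx2-1, beside 16.2% of all tested genes. DESeq2 also called 0 of 10, beside 6.63% of its tested genes, and had 3 of 10 under an unadjusted 0.05, beside 17.1% of all tested genes. Of the 10 differences 6 were positive and 4 negative, with a median log2 fold change of 0.03 against −0.00 over all tested genes. The median size of the difference, regardless of sign, was 0.17 on the log2 scale against 0.11 over all tested genes. In 0 of 10 were the 4 PLX3397 values entirely above or below the 4 vehicle values, which was so for 11.2% of tested genes. Below, levels are CPM, counts scaled to the size of the library, and ± after a log2 fold change is its standard error, with a 95% interval.

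**Figure D2:**
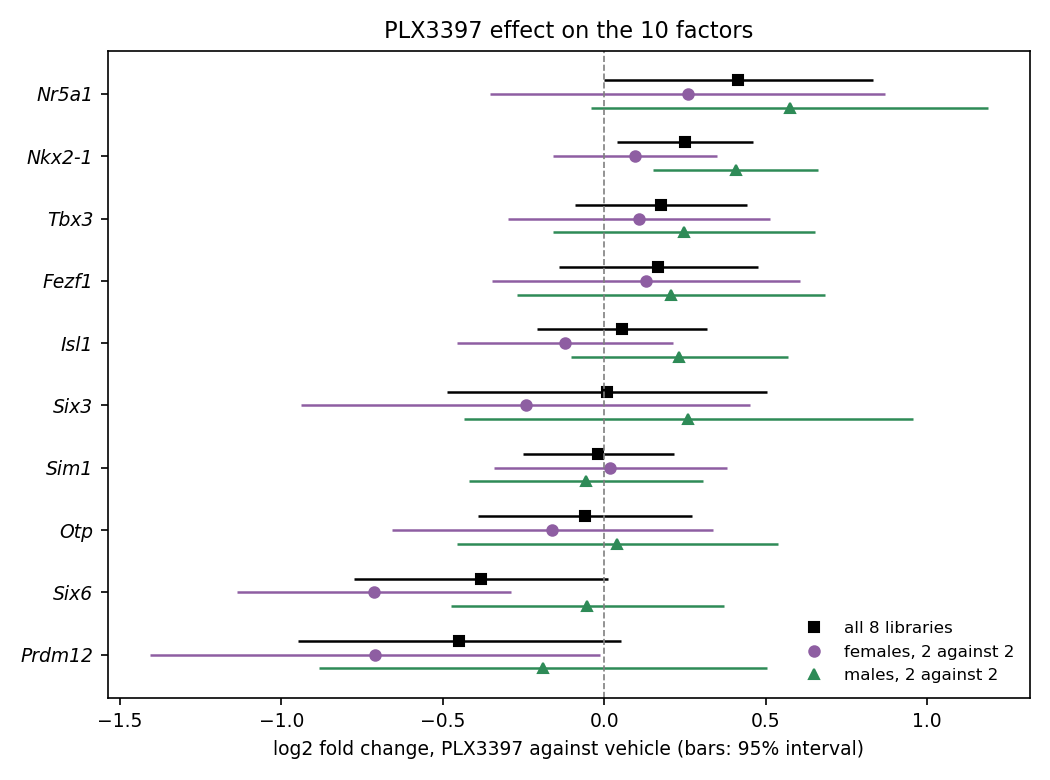
Log2 fold change of PLX3397 against vehicle for each factor over all 8 libraries and within females and males, with bars for the 95% interval. The estimates over all libraries run from −0.45 for Prdm12 to 0.42 for Nr5a1, and the interval of Nkx2-1 alone lies clear of 0 there.

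The first group belongs to the ventral and arcuate hypothalamus. Nkx2-1 (ENSMUSG00000001496, chr12:56531958-56536908, minus strand, mm10) encodes a homeodomain factor that specifies the ventral hypothalamus. Its levels were 31.8, 36.04, 26.3 and 27.3 CPM in Vehicle F1, F2, M1 and M2, and 33.3, 39.2, 34.8 and 36.3 CPM in the PLX3397 libraries in the same order. Only Vehicle F2 reached into the PLX3397 range, and the other vehicle libraries were all lower. The means were 30.4 ± 4.49 and 35.9 ± 2.49 CPM (SD, n = 4 each), a log2 fold change of 0.25 ± 0.09 (0.04 to 0.46) with an adjusted p of 0.233 by edgeR.

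Prdm12 (ENSMUSG00000079466, chr2:31640037-31655795, plus strand) encodes a PR-domain zinc finger protein that POMC neurons need to switch on Pomc, and it was the least abundant of the 10. It stood at 3.84, 4.81, 4.49 and 3.72 CPM in Vehicle F1, F2, M1 and M2 and at 2.11, 3.18, 3.01 and 4.19 CPM in the PLX3397 libraries. PLX3397 M2 lay inside the vehicle range and the other PLX3397 libraries below it. The means were 4.22 ± 0.522 CPM in vehicle and 3.12 ± 0.856 CPM under PLX3397 (SD, n = 4 each). The log2 fold change was −0.45 ± 0.21 (−0.95 to 0.05), with an adjusted p of 0.361 by edgeR. Without PLX3397 F1, the lowest library, it was −0.29 (adjusted p = 0.533).

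Tbx3 (ENSMUSG00000018604, chr5:119670669-119684724, plus strand), a T-box factor that keeps the peptide identity of arcuate neurons, had 14.8, 17.3, 15.2 and 16.1 CPM in the vehicle libraries and 14.4, 20.1, 18.0 and 19.1 CPM under PLX3397. PLX3397 F1 was the lowest of all 8 and the other PLX3397 libraries the highest, so the groups overlapped through that library. The log2 fold change was 0.18 ± 0.11 (−0.09 to 0.44, adjusted p = 0.508 by edgeR), and 0.28 without PLX3397 F1 (adjusted p = 0.189). It was 0.09 without PLX3397 F2, the highest library. Isl1 (ENSMUSG00000042258, chr13:116298281-116309689, minus strand), a LIM-homeodomain factor that arcuate neurons also need for Pomc, had 32.5, 34.1, 26.9 and 24.7 CPM in vehicle and 28.1, 33.1, 26.6 and 33.9 CPM under PLX3397. High and low libraries occurred in both groups, and the log2 fold change was 0.06 ± 0.11 (−0.21 to 0.32, adjusted p = 0.859 by edgeR).

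The second group marks the ventromedial nucleus. Nr5a1 (ENSMUSG00000026751, chr2:38692656-38714542, minus strand) encodes the nuclear receptor SF-1, without which this nucleus does not form properly. Its levels were 30.6, 27.7, 22.1 and 25.8 CPM in Vehicle F1, F2, M1 and M2 and 25.8, 44.0, 31.2 and 40.1 CPM in the PLX3397 libraries. PLX3397 F1 lay within the vehicle range and the other PLX3397 libraries above every vehicle library. The means were 26.6 ± 3.57 and 35.3 ± 8.28 CPM, and the log2 fold change was 0.42 ± 0.18 (−0.00 to 0.83) with an adjusted p of 0.308 by edgeR. Single libraries moved this value: without PLX3397 F1 the log2 fold change was 0.58 ± 0.11 with an adjusted p of 0.0564. Without PLX3397 F2 it was 0.28 (adjusted p = 0.561).

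Fezf1 (ENSMUSG00000029697, chr6:23245044-23248362, minus strand), a zinc finger repressor that ventromedial neurons need in development, had 19.9, 24.4, 20.2 and 21.2 CPM in vehicle and 19.7, 28.9, 22.03 and 25.7 CPM under PLX3397. PLX3397 F2 and M2 were above every vehicle library, whereas PLX3397 F1 was the lowest of the 8. The log2 fold change was 0.17 ± 0.13 (−0.14 to 0.47, adjusted p = 0.591 by edgeR), falling to 0.06 without PLX3397 F2 and reaching 0.27 without PLX3397 F1.

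The third group belongs to the paraventricular and supraoptic nuclei. Otp (ENSMUSG00000021685, chr13:94875602-94885130, plus strand), a homeodomain factor that neurosecretory neurons require, had 47.5, 53.8, 55.2 and 48.2 CPM in Vehicle F1, F2, M1 and M2 and 40.3, 50.3, 42.5 and 63.8 CPM in the PLX3397 libraries. The vehicle libraries lay close together, while PLX3397 gave both the lowest and the highest values. The log2 fold change was −0.06 ± 0.14 (−0.39 to 0.27, adjusted p = 0.879 by edgeR). Sim1 (ENSMUSG00000019913, chr10:50894754-50989152, plus strand), a bHLH-PAS factor acting in the same lineage, had 12.9, 15.3, 17.9 and 13.9 CPM in vehicle and 14.96, 13.7, 15.1 and 15.6 CPM under PLX3397. Here the spread was in the vehicle group, and the log2 fold change was −0.02 ± 0.10 (−0.25 to 0.22, adjusted p = 0.953 by edgeR). Both signs were unstable: leaving out 1 library at a time gave −0.21 to 0.030 for Otp and −0.080 to 0.067 for Sim1.

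The fourth group is a pair of paralogues of a homeodomain family that act in the anterior hypothalamus, the eye and the pituitary. Six6 (ENSMUSG00000021099, chr12:72939892-72944899, plus strand), needed for the suprachiasmatic nucleus, had 16.8, 13.3, 11.8 and 13.1 CPM in Vehicle F1, F2, M1 and M2 and 8.29, 10.1, 10.9 and 13.2 CPM under PLX3397. Vehicle F1 was the highest library and PLX3397 F1 the lowest, and PLX3397 M2 overlapped the vehicle range. The means were 13.8 ± 2.14 CPM in vehicle and 10.6 ± 2.02 CPM under PLX3397 (SD, n = 4 each). The log2 fold change was −0.38 ± 0.17 (−0.78 to 0.01, adjusted p = 0.321 by edgeR). Six3 (ENSMUSG00000038805, chr17:85613608-85626191, plus strand), which patterns the anterior forebrain, had 31.4, 18.7, 21.6 and 24.4 CPM in vehicle and 18.0, 24.3, 22.8 and 32.3 CPM under PLX3397. Its highest libraries were 1 of each group, and the log2 fold change was 0.01 ± 0.21 (−0.49 to 0.50, adjusted p = 0.989 by edgeR).

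Vehicle F1 held RNA of pituitary genes. The 14 pituitary markers, from a list with hormone genes and their regulators, summed to 3165 CPM in Vehicle F1 and to between 7.89 and 22.2 CPM in the other libraries, with Gh, the growth hormone gene, at 2652 CPM in Vehicle F1. The pituitary also expresses Six3, Six6, Isl1 and Nr5a1. Without Vehicle F1 the log2 fold change of Six6 was −0.24 (adjusted p = 0.493 by edgeR) in place of −0.38, that of Six3 0.23 in place of 0.01, that of Isl1 0.08 in place of 0.06 and that of Nr5a1 0.48 in place of 0.42. The part of pituitary RNA in the levels of these genes was not tested.

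The factors also varied between libraries in ways that the groups did not follow. PLX3397 F1 was the lowest of the 8 libraries for 6 factors, Otp, Six3, Six6, Tbx3, Prdm12 and Fezf1, and its median deviation from the gene means was −0.22 on the log2 scale. PLX3397 M2 lay above the mean for 10 of 10, with a median deviation of 0.19, and PLX3397 F2 was the highest for Nkx2-1, Tbx3, Nr5a1 and Fezf1. Summed over the 10 factors the PLX3397 libraries ran from 205 to 284 CPM and the vehicle libraries from 218 to 246 CPM, so the PLX3397 range contained the vehicle range. The SD within groups, on the log2 scale, was largest for Six3 at 0.331, followed by Prdm12 at 0.305 and Nr5a1 at 0.283, and smallest for Sim1 at 0.152. The median SD of 8594 genes of like level was 0.150.

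**Figure D3:**
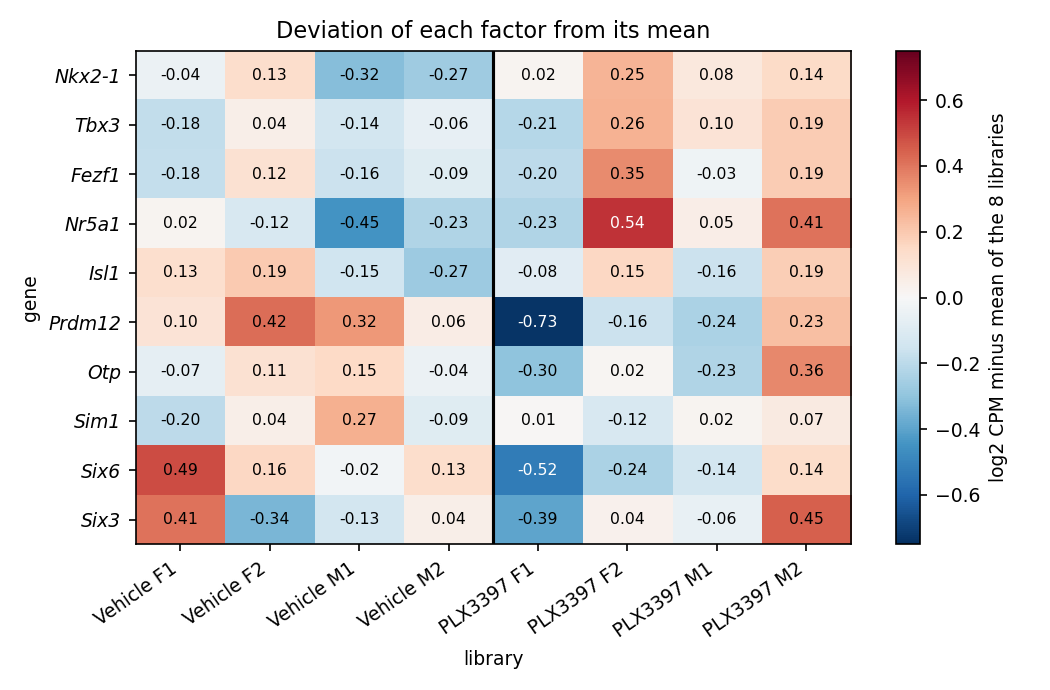
Deviation of each library's level from the gene's mean over the 8 libraries, log2 scale, with genes in rows and libraries in columns, vehicle left of the line. The PLX3397 F1 column is negative for 8 of the 10 factors and the PLX3397 M2 column positive for 10 of 10.

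PLX3397 was compared with vehicle within each sex. Within females, edgeR called 0 of 10 (0.361% of all tested genes were called there), with 2 of 10 at an unadjusted p under 0.05, against 9.56% of tested genes. These were Six6, with a log2 fold change of −0.71 ± 0.18 (adjusted p = 0.258), and Prdm12, with −0.71 ± 0.29 (adjusted p = 0.512). Within males it called 0 of 10 (1.54% of all tested), and Nkx2-1 was the 1 factor under an unadjusted 0.05 (13.6% of all tested), at 0.41 ± 0.11 (adjusted p = 0.162). In males Six6 had −0.05 ± 0.18 and Prdm12 −0.19 ± 0.29, and in females Nkx2-1 had 0.09 ± 0.11.

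The difference of the effect between the sexes, which tests this directly, was called for 0 of 10 by edgeR, beside 0.077% of all tested genes, and for 0 of 10 by DESeq2, beside 0.846%. Six6 came nearest, its effect being higher in males by 0.66 ± 0.25 on the log2 scale (0.06 to 1.26, adjusted p = 0.819 by edgeR), and it was the 1 factor under an unadjusted 0.05, as were 6.01% of all tested genes. The difference was positive, males minus females, for 9 of 10. PLX3397 F1, the low library above, is 1 of the 2 treated females. Vehicle F1, the library with pituitary RNA, is 1 of the 2 vehicle females. It had the highest Six6 of the 8 libraries, at 16.8 CPM. Males against females, with treatment held, gave 0 of 10 called by edgeR (0.0592% of all tested genes) and by DESeq2 (0.308%), and 0 of 10 at an unadjusted 0.05 by both (4.99% of all tested genes by edgeR and 5.5% by DESeq2). The smallest p was 0.0783 by edgeR for Nkx2-1, lower in males by a log2 fold change of −0.18 ± 0.09.

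Factors that mark the same region were set against each other over the 8 libraries, as 4 pairs named by region. Nr5a1 and Fezf1 of the ventromedial nucleus had a Pearson r of 0.82 (exact permutation p = 0.012, adjusted over the 4 pairs 0.0479) and a Spearman rho of 0.76 (p = 0.0368, adjusted 0.147). Without PLX3397 F2 and M2, those farthest from the median of Nr5a1, r was 0.28 (exact permutation p = 0.569, n = 6). Leaving out extreme libraries also narrows the range of Nr5a1, which by itself can lower r. Without PLX3397 F2 alone r was 0.67, and without PLX3397 M2 alone 0.79. Six3 and Six6 had r = 0.64 (exact permutation p = 0.0825, adjusted 0.165) and rho = 0.50 (p = 0.216, adjusted 0.288). Without PLX3397 M2 and Vehicle F1, the latter the library with pituitary RNA, r was 0.29. Otp and Sim1 had r = 0.37 (exact permutation p = 0.374, adjusted 0.499) and rho = 0.60 (p = 0.132, adjusted 0.265), and r = 0.50 without PLX3397 F1 and M2. Tbx3 and Prdm12 had r = 0.19 (exact permutation p = 0.672, adjusted 0.672) and rho = 0.10 (p = 0.84, adjusted 0.84), and r = −0.13 without PLX3397 F1 and F2.

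With the group means removed, an alternative chosen after seeing the data with exact permutation within groups, r over the 8 libraries was 0.79 for Nr5a1 and Fezf1 (p = 0.0677, adjusted 0.0972). It was 0.88 for Six3 and Six6 (exact permutation p = 0.0208, adjusted 0.0833), 0.80 for Tbx3 and Prdm12 (p = 0.0729, adjusted 0.0972) and 0.37 for Otp and Sim1 (p = 0.208, adjusted 0.208). No pair passed the adjusted threshold there, and Tbx3 with Prdm12 moved from 0.19 to 0.80. Vehicle F1, which held pituitary RNA, was the highest vehicle library for both Six3 and Six6. Without it, and with the group means kept, the r of Six3 with Six6 was 0.46. Among 16872 tested genes, Fezf1 ranked 185 by its correlation with Nr5a1, Six6 599 with Six3, Sim1 2932 with Otp and Prdm12 5862 with Tbx3. Of all 45 pairs among the 10 factors, 33 had a positive r and the median was 0.31. Some pairs not chosen by region had an r near or above that of Nr5a1 with Fezf1. Tbx3 and Fezf1 had the highest r of all at 0.94, Tbx3 and Nr5a1 had 0.82, Nkx2-1 and Nr5a1 0.81 and Otp and Prdm12 0.80.

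**Figure D4:**
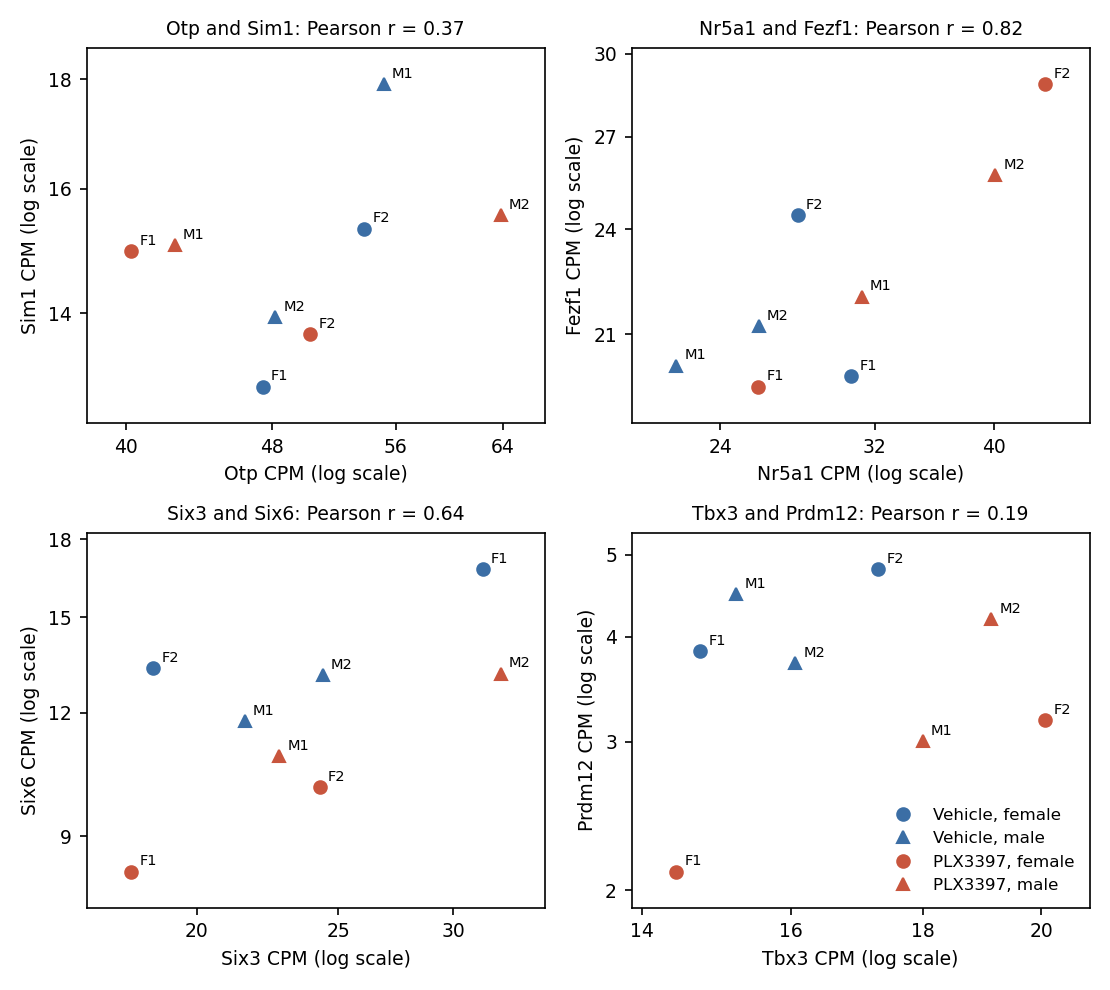
CPM of 1 factor against the other for the 4 region pairs, log axes, each point a library with its label (circles female, triangles male, colours by group). For Nr5a1 and Fezf1 the libraries PLX3397 F2 and M2 lie apart at the upper right, and the other 6 give r = 0.28.

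The genes most like each factor over the 8 libraries, by Pearson r of log2(CPM + 0.1), are the highest of 16872 values each and are given as a description. Nkx2-1 was most like Eml6 (r = 0.986), Otp like Tmem192 (0.988), Sim1 like Wdfy3 (0.973), Isl1 like Eps8l1 (0.975) and Six3 like Arfgap3 (0.966). Six6 was most like Gm5905 (0.970), Tbx3 like Tmem132e (0.990), Prdm12 like Rgs16 (0.961), Nr5a1 like Ociad1 (0.983) and Fezf1 like Pik3cb (0.976).

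No source used here says if strand was kept, and without it reads of exons that overlap on opposite strands cannot be told apart. An opposite-strand gene overlapped or lay within 5 kb of 7 of the 10 factors, a share near that of all tested protein-coding genes (67.6% of 13536). Exons were read from GENCODE gene models, as the deposited table gives only gene spans. There the share of exonic bases also covered by an opposite-strand exon was 8.09% for Prdm12 (Gm13425), 5.03% for Six3 (Six3os1 and Gm28528), 4.79% for Six6 (4930447C04Rik), 1.74% for Tbx3 (Tbx3os1) and 0 for the other 6. In the deposited table the span of 4930447C04Rik ends 1914 bases from Six6 without overlap, and the span of Six3 differs from GENCODE's. Gm13425, under the filter and not tested, had 1.91 ± 0.474 CPM in vehicle and 1.27 ± 0.426 CPM under PLX3397 (SD). Like Prdm12 it was lowest in PLX3397 F1, and its r with Prdm12 was 0.88. The part of its reads in the level of Prdm12 was not tested. Six3os1 had 26.3, 16.4, 28.5 and 29.8 CPM in Vehicle F1, F2, M1 and M2 and 10.8, 29.1, 9.90 and 31.6 CPM under PLX3397. It was low in PLX3397 F1 and M1 and about the vehicle level in PLX3397 F2 and M2, with a log2 fold change of −0.29 ± 0.42 (adjusted p = 0.791 by edgeR).

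Nr5a1os lies on the strand opposite Nr5a1 but shares no exonic base with it in GENCODE. It had 0.273, 0.636, 0.928 and 0.838 CPM in Vehicle F1, F2, M1 and M2 and 1.11, 1.01, 1.34 and 1.25 CPM under PLX3397. The groups did not overlap, at a low level, and the log2 fold change was 0.88 ± 0.30 with an adjusted p of 0.209 by edgeR. Sfta3-ps, which lies beside Nkx2-1 on the same strand, had 18.4 ± 1.80 CPM in vehicle and 21.2 ± 0.923 CPM under PLX3397 (log2 fold change 0.21 ± 0.08, adjusted p = 0.237). The other tested neighbours, Gm26973, Gm28528, 4930447C04Rik, Tbx3os2, Tbx3os1 and C130093G08Rik, had adjusted p values from 0.709 to 0.926.

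A list of 36 further factors of hypothalamic regions placed the 10 among their kind. Of its 33 tested genes 1 fell and 0 rose (3.03%, beside 2.14% of all tested genes called). Of the 33 differences 20 were positive and 13 negative, and the median log2 fold change was 0.12. Lhx8, Lhx9 and Sim2 did not reach the filter. The gene that fell was Nkx2-2, a homeodomain factor of the ventral diencephalon that oligodendrocyte precursors also express. It had 13.4, 16.1, 17.5 and 20.1 CPM in Vehicle F1, F2, M1 and M2 and 9.32, 10.4, 8.85 and 9.11 CPM under PLX3397. Every PLX3397 library was below every vehicle library, and the log2 fold change was −0.82 ± 0.13 (adjusted p = 0.0223 by edgeR). Leaving out 1 library at a time kept this call in 3 of 8 fits, with a log2 fold change from −0.92 to −0.73 and an adjusted p of at most 0.0841 over all alternatives. Among vehicle libraries the call was lost when F2, M1 or M2 was left out, and among PLX3397 libraries when M1 or M2 was. It was also lost without Vehicle F1 and PLX3397 M2 together, and with the replicate label as a block.

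Cell type markers moved with treatment beside these values. The shares over all tested genes were 2.14% called by edgeR, 16.2% under an unadjusted 0.05 and, of its own tested genes, 6.63% called by DESeq2. Of 10 microglial markers 7 fell by edgeR and 9 were called by DESeq2 (median log2 fold change −3.66), and their sum was 268 to 281 CPM in vehicle and 23.4 to 46.3 CPM under PLX3397. Csf1r, P2ry12, Tmem119 and C1qc kept the call in all 8 fits with a library left out, C1qb in 3 and Trem2 in 1. C1qa and Trem2 had no count in PLX3397 M2. Of 10 oligodendrocyte markers 5 fell by edgeR and 8 were called by DESeq2 (median −1.30), with sums of 6621 to 9988 CPM in vehicle and 2161 to 4918 CPM under PLX3397. Gpr17 kept the call in all 8 such fits, Myrf in 5, Cnp in 2 and Mbp and Mag in 1 each. Of 11 neuronal markers 1 rose, Nefl, with a log2 fold change of 0.17 (adjusted p = 0.0421 by edgeR), a call lost when any 1 library was left out. Of the 11, 9 differences were positive, 5 were under an unadjusted 0.05 and DESeq2 called 3. The neuronal sum was 5216 to 5386 CPM in vehicle and 5480 to 5864 CPM under PLX3397, and the median log2 fold change of these markers was 0.11. Astrocyte markers (8 tested) and markers of ependyma and tanycytes (9 tested) had 0 called by edgeR, with 2 and 0 at an unadjusted 0.05 and 1 and 0 by DESeq2. The part of these shifts in the levels of the region factors was not tested.

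Factors of the midbrain and hindbrain were mostly undetected or low, while several named for the telencephalon or thalamus were as abundant as some of the 10. Of 14 factors of the midbrain and hindbrain 13 were under the filter and 4 had no count in any library, and the defining telencephalic factors Emx1, Tbr1 and Neurod2 were under it as well. Gbx2 (0.159 FPKM) and Pou4f1 (0.0213 FPKM) of the thalamic list were also under the filter. Prox1 of the thalamic list had 4.03 FPKM, Foxp1 of the telencephalic list 1.59 and Tcf7l2 1.49 FPKM (Prox1 was named after its value was seen), against 1.29 FPKM for Prdm12 and 3.88 for Six3. Which cells or regions held the RNA of Prox1, Foxp1 and Tcf7l2 was not tested. Genes below the filter, 3 of them named after their values were seen, stood high in 1 vehicle library each. Pax7 of the midbrain list had 5.91 CPM in Vehicle F1 and 0.344 to 1.83 CPM elsewhere, and Tbr1 had 4.49 CPM in Vehicle M1 and 0.511 to 1.74 CPM elsewhere. Lhx8 of the hypothalamic list had 3.78 CPM in Vehicle M1 and 0 to 1.08 CPM elsewhere. Of the 7 tested telencephalic factors, Isl1 among them, and the 6 tested thalamic ones 0 were called by edgeR. An unadjusted p under 0.05 was reached by 1 of the 7 and by 2 of the 6, Tcf7l2 and Irx1, beside 16.2% of all tested genes. DESeq2 called 0 and 1, beside 6.63% of its tested genes. Tcf7l2 had a log2 fold change of −0.42 (adjusted p = 0.146 by edgeR and 0.0314 by DESeq2). Irx1 had one of −0.37 (adjusted p = 0.272 by edgeR and 0.202 by DESeq2).

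Genes expressed by the neurons that the 10 factors mark were taken as 4 lists. For comparison, edgeR called 2.14% of all tested genes, 16.2% were under an unadjusted 0.05 and DESeq2 called 6.63% of its tested genes. Of 13 genes of ventromedial neurons that express Nr5a1, edgeR called 0, 5 were under an unadjusted 0.05 and DESeq2 called 3. Of the 13 differences 11 were positive, with a median log2 fold change of 0.15. Lepr, the leptin receptor, had 7.79, 7.68, 6.75 and 7.27 CPM in Vehicle F1, F2, M1 and M2 and 10.2, 8.83, 9.82 and 10.5 CPM under PLX3397. All PLX3397 libraries were above all vehicle libraries, with a log2 fold change of 0.42 ± 0.10 (adjusted p = 0.0873 by edgeR and 0.00566 by DESeq2). Amigo2, a cell adhesion gene, had 74.4 ± 3.58 CPM in vehicle and 92.2 CPM on average under PLX3397. Its log2 fold change was 0.31 ± 0.07 (adjusted p = 0.099 by edgeR and 0.00919 by DESeq2).

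Of 10 genes of arcuate neurons, which Nkx2-1, Isl1, Tbx3, Prdm12 and Otp help to specify, edgeR called 0, 3 were under an unadjusted 0.05 and DESeq2 called 3. The median log2 fold change was 0.23. Agrp, whose peptide drives feeding, had 10.01, 13.9, 12.5 and 10.9 CPM in Vehicle F1, F2, M1 and M2 and 18.9, 17.7, 27.1 and 40.6 CPM under PLX3397. The groups did not overlap, and the log2 fold change was 1.08 ± 0.23. The adjusted p of Agrp was 0.0699 by edgeR and 8.61e-05 by DESeq2. Ghrh, which encodes growth hormone releasing hormone, had a log2 fold change of 0.34 ± 0.07 (adjusted p = 0.0757 by edgeR and 0.00419 by DESeq2).

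Of 5 peptide genes of neurons that depend on Otp and Sim1, edgeR called 0, with 0 under an unadjusted 0.05 and 0 by DESeq2, and the median log2 fold change was −0.20. Oxt, the oxytocin gene, had −0.58 ± 0.27 (adjusted p = 0.355) and Avp, the vasopressin gene, −0.50 ± 0.30 (adjusted p = 0.478). Of 8 tested genes of anterior neurons where Six3 and Six6 act, edgeR called 0, 1 was under an unadjusted 0.05 and DESeq2 called 0, with a median of −0.27. Per2, a clock gene, had 0.17 ± 0.07 (adjusted p = 0.301) and Grp, a peptide gene of the suprachiasmatic nucleus, −0.27 ± 0.13 (adjusted p = 0.366).

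**Figure D5:**
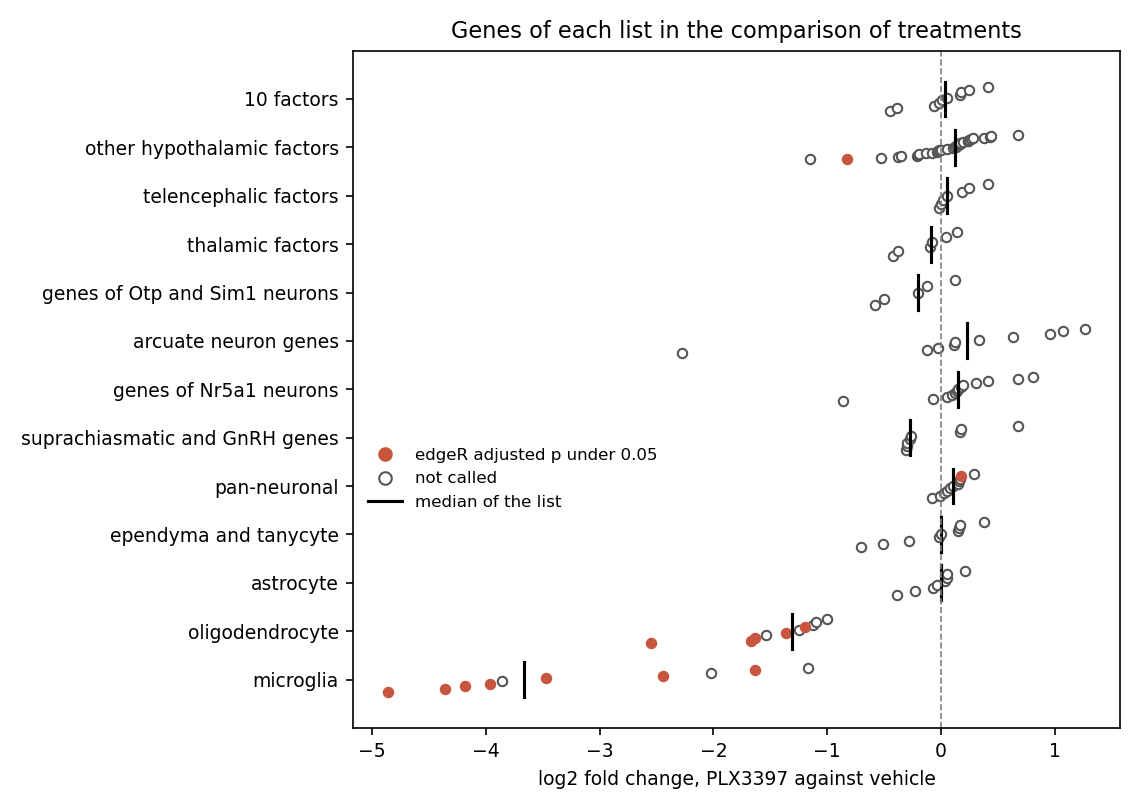
Log2 fold change of PLX3397 against vehicle for each tested gene of the lists, 1 line per list, with the list's median marked. The 10 factors spread around 0, the microglial genes (median −3.66) and oligodendrocyte genes (median −1.30) lie to the left.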

How the data were processed

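RNA sequencing of 8 hypothalami was analysed from a table of whole-number counts per gene that the authors deposited. The same table holds the FPKM values that the authors computed, as its headers call them. Tools listed without roles in the submitters' processing notes are HISAT2, StringTie, bcl2fastq 2.0, limma and DESeq2, with the mouse build mm10. No source used here says how reads were counted. Total counts were 54115300 to 60001808 in vehicle and 55900335 to 67487391 in PLX3397 libraries. Chi-square tests of the counts between libraries of the same group found no library repeated. Pairs across groups were not examined in this way.

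From the counts, edgeR 4.0.16 (R 4.3.3) fitted its quasi-likelihood test with TMM scaling and sex as covariate to the 16894 genes whose FPKM averaged 0.5 or more. P-values are two-sided, adjusted over all tested genes by the Benjamini-Hochberg method, with a threshold of 0.05. Effects within sexes and their difference came from a model of 4 groups. Standard errors and intervals were derived from the test. FPKM served to compare levels between genes and CPM, on TMM library sizes, within a gene. The procedure was tested on simulated data. P-values of the fits weigh a mean difference against the spread between these samples, and those of correlations come from exact permutation. Alternatives were DESeq2 1.42.0, limma 3.58.1 on log2(FPKM + 0.5), other scalings and filters, a replicate block, leaving out libraries and, chosen after seeing the data, edgeR's bias-adjusted dispersion and correlations of deviations from group means.

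The 10 factors and the gene lists were chosen with earlier results of these data known. Named genes are the 10 factors, genes within 5 kb of them, called genes of each list (otherwise the 2 with the smallest p) and the genes most correlated with each factor; a few genes of the lists are not reported here. Promoter sequences are RefSeq's (GRCm38.p6). Those of Nr5a1 and Tbx3, and protein sequences, were not used here. Exon overlaps were read from GENCODE gene models.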

Additional observations from a re-analysis of the deposited data

Results flagged for a closer look

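The highest and lowest values of 66 groups of 4 libraries (1 factor, neighbouring gene or summed list in 1 treatment group) were examined for a library far from the others, and 4 stood apart by Dixon's test at the 95% level. Chance alone sets apart about 1 in 20 groups. Vehicle F1 was the highest vehicle library for Tbx3os1, the gene antisense to Tbx3, at 5.72 CPM against 3.08 to 3.47 CPM. Its summed pituitary markers were 3165 CPM against 7.89 to 14.997 CPM in the other vehicle libraries. Its summed genes of arcuate neurons were 1296 CPM against 292 to 329 CPM, of which Pomc, a gene that the pituitary also expresses, held 967 CPM. Vehicle M2 had the highest sum of microglial markers in its group, 281 CPM against 268 to 269 CPM. None of the 10 factors had a library set apart in this way in either group.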

How the results depend on the processing

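The count of factors called stayed at 0 in each of 19 alternatives for PLX3397 against vehicle, and in each of 12 for the difference between sexes and for males against females. Nkx2-1, Six6, Tbx3, Prdm12, Nr5a1 and Fezf1 kept the sign of their log2 fold change in all 19. The sign of the others changed when 1 library was left out: values ran from −0.21 to 0.030 for Otp, −0.080 to 0.067 for Sim1, −0.051 to 0.13 for Isl1 and −0.15 to 0.23 for Six3. Isl1 was also −0.049 without Vehicle F1 and PLX3397 M2 together. The correlation of Nr5a1 with Fezf1 ran from 0.67 to 0.90 with 1 library left out and was no longer under an adjusted 0.05 in 6 of 8 cases. That of Six3 with Six6 ran from 0.46 to 0.84. By exact permutation its adjusted p was 0.0468 without Vehicle F2, where r was 0.84. Without Vehicle F1, r was 0.46 (exact permutation, adjusted p = 0.581), and without PLX3397 F1 also 0.46 (adjusted p = 0.378). The correlation of Tbx3 with Prdm12 ran from −0.39 to 0.37. With the group means removed, Nr5a1 with Fezf1 had r = 0.79 and was no longer under an adjusted 0.05. Fewer libraries remained with 1 library left out, and other causes were not tested. Over all genes, calls numbered 362 in the fit used, 1099 with DESeq2, 138 to 361 with 1 library left out and 123 without Vehicle F1 and PLX3397 M2. Genes called for the difference between sexes were 13 by edgeR, 143 by DESeq2, 1 with the filter at a mean FPKM of 0.1 and 0 to 19 with 1 library left out. Genes called for males against females were 10 by edgeR and 52 by DESeq2.

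Groups share the labels F1, F2, M1 and M2, but the correlation of deviations between libraries of the same label was 0.0365 to 0.0939 and 3 of 4 correlated best with their own label. With the label as a replicate block, 79 genes and 0 of the 10 factors were called, and Nkx2-1 had a log2 fold change of 0.25 (adjusted p = 0.282 by edgeR). The least abundant factor, Prdm12, had 2.11 CPM or more, against 0.0444 to 0.0554 CPM that a count of 0 allows, for counting error only.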
